A study of Homo sapiens with 4 samples.

Results

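The mRNAs of the DEAD and DEAH box helicases were examined for IGF2BP3 binding in OE-19 cells, a long-established line that comes from an adenocarcinoma at the esophagogastric junction. The members were the GENCODE 44 protein-coding genes with a symbol of DDX or DHX followed by digits, which gave 54 of 20046 protein-coding genes, 38 DDX and 16 DHX. Their peaks were those whose summit lay in an exon, 89 of the 44622 peaks in IGF2BP3 RIP replicate 1 and 84 of the 42723 in replicate 2. The series held 4 samples of OE-19 cells, all grown in RPMI1640 with fetal bovine serum. Per their labels they were fixed with UV light before lysis, a step that the study's RIP method does not mention. Of the 4 samples, 2 were pulled down with anti-IGF2BP3 and 2 were kept as input without an antibody. RIP-seq, or RNA immunoprecipitation sequencing, reads the RNA that comes down with a protein, and regions where its reads pile up are called as peaks. Peaks were called in each RIP replicate separately, and input values were not analysed here. Both replicates come from 1 cell line, with no second line or unrelated antibody to compare with. There was therefore no comparison between groups, and the values below are descriptions of 2 replicates without a test.

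RNA helicases use ATP to open RNA duplexes or to strip proteins from RNA. The DEAD and DEAH families are named after the amino acids of motif II, a conserved stretch that takes part in ATP hydrolysis, and both share a helicase core that runs from motif I, which holds the ATP phosphates, to motif VI. Members act at nearly every step in the life of an mRNA or rRNA. Several drive the spliceosome, many work on ribosome precursors in the nucleolus, and others serve export, translation, decay and antiviral defence. IGF2BP3 binds mRNAs through RRM and KH domains and is known for protecting bound transcripts, in part through m6A.

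For each peak the files give a fold enrichment, the pileup at the summit divided by the background expected there, and a p and a q, all from the authors' peak caller. The q is corrected for multiple testing within the list. Over all exonic peaks of protein-coding genes, the median fold enrichment was 2.95 in replicate 1 and 2.93 in replicate 2, and 60.8% and 65.9% of the peaks had a q of 1. The lists hold only peaks past a limit and the read depth is unknown, so a gene without a peak is one without a call, which does not show a lack of binding. RNA levels were not examined, so neither the members nor the protein-coding genes compared with them were limited to those expressed in OE-19 cells. A peak was called shared if it overlapped any peak of the other replicate by 1 bp or more.

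Helicase mRNAs carried few and mostly weak peaks. An exonic summit was present in both replicates in 18 of the 54 genes (33.3%), compared with 28.0% of all protein-coding genes, and in either replicate in 30 (55.6%), compared with 36.2%. The other 24 had no exonic summit in either list, and 12 had one in a single replicate, 7 of these in replicate 1 and 5 in replicate 2. Among the 38 DDX genes, 11 had summits in both replicates and 20 had none. Among the 16 DHX genes, 7 had summits in both and 4 had none. The peaks were concentrated in DDX60, DHX33, DHX40, DHX57 and DDX21, which together held 49 of the replicate 1 summits (55.1%) and 40 of the replicate 2 summits (47.6%). Across the 54 genes the number of summits correlated between replicates at r = 0.899 and rho = 0.736, where many points are pairs of 0. These correlations are across genes, which share the 2 libraries and differ in length.

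**Figure D1:**
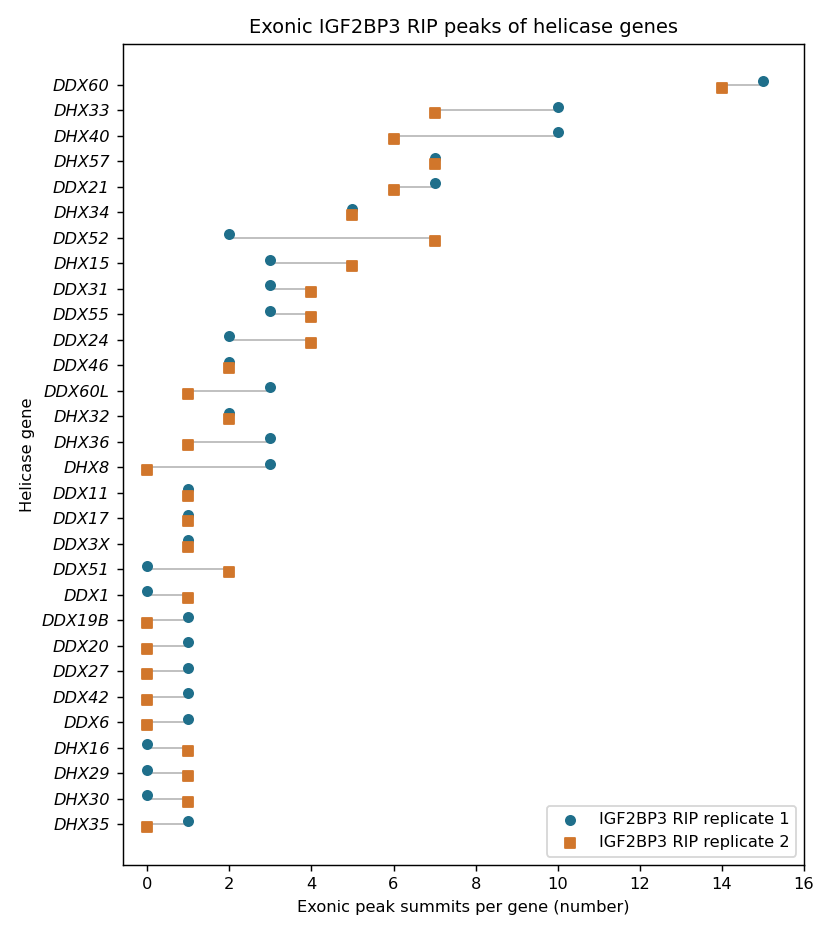
The number of exonic peak summits (x axis) is plotted for the 30 helicase genes with at least 1 summit (y axis), with circles for IGF2BP3 RIP replicate 1 and squares for replicate 2, joined by a grey line. DDX60 stands highest with 15 and 14 summits, DHX33, DHX40, DHX57 and DDX21 follow, and 12 genes have a point at 0 in one replicate.

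The share of genes with summits in both replicates was near or below that of genes of like coding length in 3 of 4 length classes. Helicases have long coding sequences, with a median CDS of 2218.5 nt against 1272 nt over all protein-coding genes. For a CDS of 1500 to 2500 nt, 10 of 28 helicases had summits in both replicates (35.7%), compared with 37.2% of 4634 protein-coding genes. For 2500 to 4000 nt, the counts were 5 of 14 (35.7%) and 48.8% of 2258. Below 1500 nt, 0 of 8 helicases had summits in both replicates, compared with 17.7% of 11878 genes, and from 4000 nt upward 3 of 4 did, compared with 54.1% of 1276. For summits in either replicate, the helicase share was higher than that of all genes from 1500 nt upward. At 1500 to 2500 nt it was 15 of 28, compared with 2139 of 4634, and at 2500 to 4000 nt 9 of 14, compared with 1287 of 2258. From 4000 nt it was 4 of 4, compared with 768 of 1276, and below 1500 nt 2 of 8, compared with 3065 of 11878. Per length of mRNA, helicases held 0.420 summits per kb in replicate 1 and 0.391 in replicate 2 (mean 0.406 ± 0.0202, SD, n = 2), below the 0.570 and 0.550 per kb of all protein-coding mRNAs (mean 0.560 ± 0.0145, SD, n = 2). The SD covers the 2 libraries and not the spread among genes, where the mean ran from 0 to 2.41 per kb. Without DDX60 the helicase values were 0.359 and 0.334 per kb. Across the 54 genes the rank correlation of the mean number of summits with CDS length was 0.413, and with mRNA length 0.539.

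The peaks were also weaker than elsewhere in the lists. Their median fold enrichment was 2.69 in replicate 1 and 2.55 in replicate 2, with a range of 1.89 to 5.56 and 1.84 to 5.05. Only 1 of the 89 replicate 1 peaks (1.12%), in DDX21, had a q of 0.05 or less, as did 0 of the 84 replicate 2 peaks, whereas 10.2% and 7.75% of all exonic peaks of protein-coding genes reached it. At the level of genes this was 1 of 54 in either replicate (1.85%), compared with 10.3%, and 0 in both, compared with 4.93%. A fold of 5 or more was found in 2 genes in either replicate, DDX21 and DHX15 (3.70%, compared with 5.7%), and in 0 in both, compared with 2.34%. Each replicate had 7 peaks with an uncorrected p of 1e-05 or less (7.87% and 8.33%), compared with 16.6% and 14.5% overall. These peaks lay in 8 genes (14.8%, compared with 15.4% of protein-coding genes), namely DDX21, DDX52, DDX60, DDX60L, DHX15, DHX33, DHX40 and DHX57. Only DHX33 and DHX40 had such a peak in both replicates (3.70%, compared with 8.15%). Of the 18 genes with summits in both replicates, 7 had a highest fold above the median of 3.59 for the 5619 protein-coding genes of that kind, and the median of the 18 was 3.12. Since these 18 had to have a call in each list, neither median describes all members.

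The strongest sites present in both replicates were 5 sites with a mean fold enrichment of at least 3.5, shown here because they had the highest folds of the sites found in both lists. Each line gives 30 nt of the mRNA, 5′ to 3′ and written as DNA, with the 5 bases centred on the summit of the stronger replicate in capitals.
DDX21 exon 12, chr10:68977641-68977670, plus strand: tcaggtgccacgTCCGTagaccagcgctcc
DHX32 exon 9, chr10:125839008-125839037, minus strand: cataaagaaagcTCTTCtgtccggttactt
DHX40 exon 13 with the end of exon 12, chr17:59588041-59598753, plus strand: ttcattagacctGTTGAtccagagtaccag
DHX40 exon 10, chr17:59579817-59579846, plus strand: gagaactagtttGACATctgtagttctgac
DDX24 exon 8, chr14:94053040-94053069, minus strand: gcctgcacaactCTTGGattgagcaggcag
Coordinates are those of GRCh38 with the first base as 1, and the sequences were read from that genome. All 5 summits lay in the CDS, at codons 623, 620, 528, 432 and 751 in the order shown. The folds in replicates 1 and 2 were 5.56 and 3.66 for DDX21, 4.12 and 3.92 for DHX32, and 3.61 and 3.51 for DDX24. They were 4.06 and 3.81 for DHX40 exon 13 and 3.09 and 4.28 for DHX40 exon 10. The replicates were closest at the DHX32 and DDX24 sites and farthest apart at DDX21, where the mean was 4.61 ± 1.35 (SD, n = 2).

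Helicases of ribosome production formed the largest group, with 15 genes, of which 6 had summits in both replicates, 2 in one and 7 in neither, compared with 28.0% of all protein-coding genes in both. The group held 28 and 34 summits, or 0.486 and 0.590 per kb in replicates 1 and 2, near the 0.570 and 0.550 of all protein-coding mRNAs. DDX21, a nucleolar helicase of rRNA transcription and processing (ENSG00000165732.14), had 7 and 6 summits. Its highest folds were 5.56 and 3.68, with a lowest q of 0.00175 in replicate 1 and 1 in replicate 2. The strongest replicate 1 peak, at chr10:68977589-68977677 in exon 12, overlapped a replicate 2 peak with a summit 44 nt away. DDX21 thus held the sole helicase peak past a q of 0.05, and that peak was past it in 1 replicate of 2. DHX33, another nucleolar helicase linked to rRNA synthesis (ENSG00000005100.13), had 10 and 7 summits with highest folds of 3.80 and 3.81. It had 5 sites in both replicates, in exons 5, 6, 7, 10 and 11, with summits 7 to 74 nt apart. Its lowest q values, 0.0663 and 0.0864, came from different exons, 11 in replicate 1 and 7 in replicate 2.

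The other ribosome helicases had fewer peaks. DDX24 (ENSG00000089737.19) had 2 and 4 summits with highest folds of 3.96 and 4.08, and sites in exons 8 and 9 were found in both replicates. The replicate 2 peak with the fold of 4.08, in the 3′ UTR, lay where exons of DDX24 and OTUB2 overlap. The lists carry no strand, so it could belong to either gene. It overlapped a replicate 1 peak whose summit was in no DDX24 exon. DDX52, needed for the small ribosomal subunit, had 2 and 7 summits and highest folds of 4.05 and 3.17, and its one shared site lay in exon 5. DDX55, of the large subunit pathway, had 3 and 4 summits and highest folds of 2.92 and 3.94. DDX31 had 3 and 4 summits with highest folds of 2.75 and 3.0, and 1 of its replicate 2 summits also lay in an exon of GTF3C4. DDX27 had 1 summit in replicate 1 alone, and DDX51 had 2 in replicate 2 alone, both in the 3′ UTR. DDX10, DDX18, DDX47, DDX49, DDX54, DDX56 and DHX37 had none.

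Of 9 splicing helicases, 2 had summits in both replicates, 4 in one and 3 in neither. Of all protein-coding genes, 28.0% had summits in both and 36.2% in either. The splicing group held 0.289 and 0.231 summits per kb, compared with 0.570 and 0.550 for all protein-coding mRNAs. DHX15, which takes spliceosomes apart (ENSG00000109606.13), had 3 and 5 summits and highest folds of 3.67 and 5.05. Its strongest replicate 2 peaks, in exon 13 with a fold of 5.05 and exon 9 with a fold of 4.71, overlapped no replicate 1 peak. The q of the first was 0.0580, the lowest of any helicase peak in replicate 2. The site found in both replicates, in exon 6, had folds of 3.24 and 2.37 with summits 1 nt apart. DDX46, which acts when U2 snRNP joins the branch point, had 2 summits per replicate, no 2 of which overlapped, and highest folds of 2.92 and 2.62. The second of these lay in an exon shared with C5orf24. DHX8, which releases mRNA from the spliceosome, had 3 summits in replicate 1 and 0 in replicate 2. DDX42 and DHX35 had 1 summit in replicate 1, and DHX16 had 1 in replicate 2. DDX23, DDX41 and DHX38 had none.

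DDX60 (ENSG00000137628.18), an interferon-induced helicase of antiviral defence, carried the most peaks of all members. It had 15 summits in replicate 1 and 14 in replicate 2, a mean of 2.41 per kb, which ranked at percentile 84.9 of the 5619 protein-coding genes with summits in both replicates. Its folds were low, with highest values of 3.19 and 3.0, and their mean ranked at percentile 29. Of its peaks, 9 in each replicate were shared, from exon 13 to exon 36 of the CDS. The strongest site, in exon 17, spanned chr4:168273959-168274051 in replicate 1 and chr4:168273949-168274004 in replicate 2, with summits 41 nt apart and q values of 0.0904 and 0.156. At all 9 shared DDX60 sites but the one in exon 36, the fold was higher in replicate 1. The same held at 23 of the 34 helicase sites found in both replicates. The paralog DDX60L, which lies on the same chromosome, had 3 and 1 summits, no 2 of which overlapped. DHX58, also called LGP2, a regulator of RNA sensing, had no summit.

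The coding sequences of DDX60 and DDX60L were 77.6% identical over 5070 aligned nt, so some reads could come from either gene. When the 4 DDX60L summits were placed on the DDX60 alignment, they lay 27, 166, 7 and 13 nt from the nearest DDX60 summit of either replicate. The 30 nt at each DDX60L summit show how far the copies can be told apart, with the differing bases in capitals.
DDX60L exon 17, chr4:168421842-168421871, minus strand: agtgattgttgccccaacgtcctcaggcaa
DDX60 exon 17, chr4:168274016-168274045, minus strand: agtgattgttgccccaacgtcctcaggcaa
DDX60L exon 29, chr4:168391593-168391622, minus strand: ttgcCttaggGAtcCacatgccAtgCaaat
DDX60 exon 29, chr4:168248241-168248270, minus strand: ttgcTttaggTGtcAacatgccTtgTaaat
DDX60L exon 34, chr4:168375416-168375445, minus strand: cCttcctGcTGattgCttccaaGTCggTGA
DDX60 exon 34, chr4:168225568-168225597, minus strand: cTttcctAcGAattgTttccaaACTggCTG
The exon 17 stretches had 30 of 30 bases in common, those of exon 29 had 24 and those of exon 34 had 19. The identical stretch lies within the strongest DDX60 peak of replicate 1, so reads confined to it could come from either gene. How the authors treated reads with several best positions is not given in the sources used here. At the fourth DDX60L summit, in exon 26 at the strongest DDX60L peak (fold 3.02, replicate 2), 17 of 30 bases were in common.

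Of 5 helicases of translation, decay and G-quadruplex unwinding, 3 had summits in both replicates and 2 in one, where 28.0% of protein-coding genes had them in both and 36.2% in either. Their density, 0.378 and 0.302 summits per kb, was below the 0.570 and 0.550 of all protein-coding mRNAs. DHX34, a factor of nonsense-mediated decay (ENSG00000134815.19), had 5 summits in each replicate and highest folds of 3.29 and 2.99. Its 3 shared sites lay in exons 5, 8 and 14, and the exon 8 site was the strongest of them, with folds of 3.27 and 2.99 and summits 17 nt apart. DHX36, which unwinds G-quadruplexes, had 3 and 1 summits and DDX3X, an X-linked helicase of translation initiation, had 1 in each replicate. None of these overlapped between replicates. The highest folds were 2.49 and 2.93 for DHX36 and 2.81 and 2.88 for DDX3X. DDX6, a repressor of translation found in P-bodies, had 1 summit in replicate 1, and DHX29, a helicase of ribosome scanning, had 1 in replicate 2.

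Helicases of transcription, genome maintenance, export, mitochondria and the germ line held few peaks per gene, never more than 1 in a replicate. Of the 6 in transcription and genome maintenance, 2 had summits in both replicates and 2 in one. Among all protein-coding genes the shares were 28.0% in both and 36.2% in either. The density of these 6 was 0.131 summits per kb in each replicate, compared with 0.570 and 0.550 for all protein-coding mRNAs. DDX11 and DDX17 had 1 summit in each replicate, which did not overlap, with folds of 2.38 and 2.06 for DDX11 and 2.46 and 2.54 for DDX17. DDX11 has near-identical pseudogene copies, so its counts are uncertain. DDX1 had 1 summit in replicate 2, DDX20 had 1 in replicate 1 at a position shared with KCND3, and DDX5 and DHX9 had none. Of the 4 export helicases, DDX19B had 1 summit in replicate 1 with a fold of 3.40, while DDX19A, DDX39A and DDX39B had none. Of the mitochondrial pair, DHX30 had 1 summit in replicate 2 and DDX28 had none, and the germ line genes DDX4, DDX25, DDX43 and DDX53 had none. Paralogs could differ in calls. DDX17 had a summit in each replicate and DDX5 none, at 68.7% identity of the coding sequences. DDX21 had 7 and 6 and DDX50 none, at 69.1%. DDX19A and DDX19B were 95.3% identical, so that the single DDX19B peak could come from either gene.

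Among the 6 members placed in no group, DHX40, DHX57 and DHX32 had summits in both replicates, and DDX3Y, DDX50 and DDX59 had none. The share with summits in both was 28.0% over all protein-coding genes. DHX40 (ENSG00000108406.10) had 10 and 6 summits with highest folds of 4.06 and 4.38, a mean of 4.22 ± 0.230 (SD, n = 2), and 2.24 summits per kb. Its 4 sites in both replicates lay in exons 1, 10, 13 and 18. The exon 13 site was the one helicase site with a p of at most 1e-05 in both replicates, at q values of 0.0663 and 0.0864. The highest replicate 2 fold came from exon 12, where no replicate 1 peak overlapped. DHX57 (ENSG00000163214.21) had 7 summits in each replicate with highest folds of 3.19 and 2.93, and its 3 shared sites, in exons 7, 18 and 23, had folds of 1.88 to 2.93. The exon 7 summits lay at the same base. DHX32 had 2 summits in each replicate, of which the exon 9 pair shown above was shared.

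**Figure D2:**
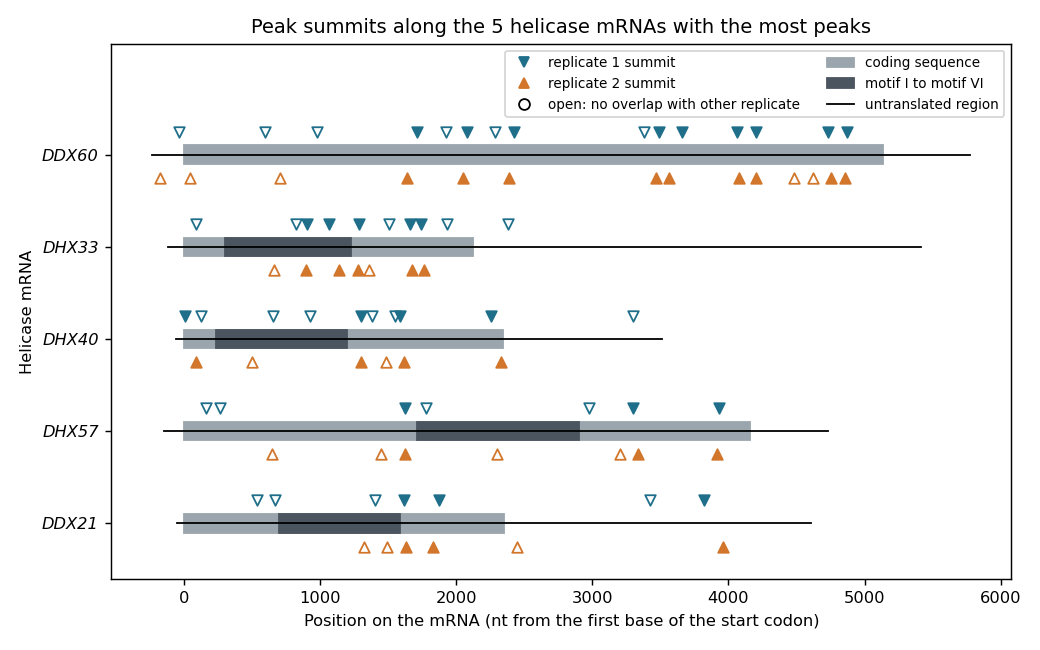
Peak summits are drawn along the mRNAs of the 5 helicases with the most peaks, with the position in nt from the start codon on the x axis. Triangles above each mRNA are replicate 1 summits and those below are replicate 2, filled where the peak overlaps one of the other replicate. Light boxes are the CDS, dark boxes the span from motif I to motif VI (not found by the patterns used in DDX60) and thin lines the UTRs. Summits run through the whole CDS of DDX60, and the long 3′ UTR of DHX33 holds 1.

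Peaks of helicase mRNAs overlapped between replicates less often than other peaks. In replicate 1, 34 of the 89 were shared (38.2%), compared with 60.9% over all protein-coding genes, and in replicate 2, 35 of the 84 (41.7%), compared with 64.7%. The mean was 39.9% ± 2.45 (SD, n = 2) against 62.8% ± 2.66 (SD, n = 2). No test was made, since peaks of a gene are not independent. Over all protein-coding genes, low folds went with less overlap. Within each class of fold the helicase share was lower than that of all protein-coding genes, by a small margin in 1 case. Below 2.5 it was 29.2% and 34.2% in replicates 1 and 2, compared with 46.2% and 45.9%. Between 3 and 4 it was 50% and 44.4% of 18 peaks each, compared with 66.3% and 72.1%. From 4 upward it was 80% and 40% of 5 peaks each, compared with 82.3% and 83.8%. Genes with few peaks also had less overlap throughout the lists. For genes with a mean of under 2 peaks, 0 of 12 and 0 of 9 helicase peaks were shared, compared with 15.6% and 18.5%, and for 5 to 10 peaks the shares were 46.2% and 58.1%, compared with 56.9% and 61.2%. Merging overlapping peaks gave 139 helicase sites, of which 34 sites in 12 genes were found in both replicates. Their summits lay a median of 22.5 nt apart, and 24 of the 34 were within 50 nt. Short distances follow in part from the choice of overlapping peaks, as helicase peaks had median widths of 89 and 75 nt. Across these 34 sites, r of log2 fold between replicates was 0.446 and rho was 0.463. The other 6 genes with summits in both replicates, DDX11, DDX17, DDX3X, DDX46, DDX60L and DHX36, had no site in common. They had only 1 to 3 summits per replicate. Sites were not merged over all protein-coding genes, so these counts have no background and cannot be read as a trait of helicases.

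**Figure D3:**
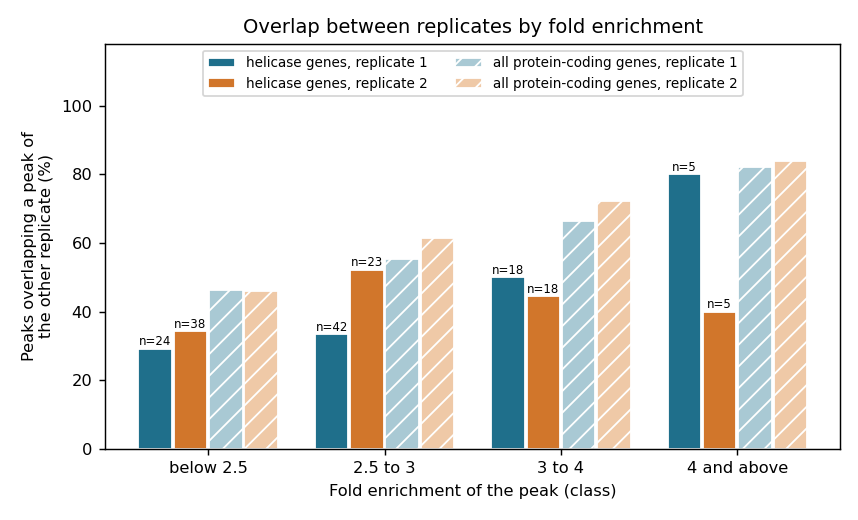
The percentage of peaks that overlap a peak of the other replicate (y axis, from 0) is drawn by class of fold enrichment (x axis), in plain bars for helicase genes and hatched bars for all protein-coding genes, for each replicate, with the number of helicase peaks above its bar. The helicase bars lie below the bars of the same replicate in every class, and the highest class rests on 5 helicase peaks per replicate.

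Helicase peaks lay mostly in the CDS. Of summits on the canonical coding transcript, 79 of 88 in replicate 1 (89.8%) and 73 of 82 in replicate 2 (89.0%) were in the CDS, compared with 76.8% and 78.3% over all protein-coding genes. The CDS also makes up more of these mRNAs. Averaged over the summits, it was 64.6% of the length of their own helicase mRNA in both replicates, compared with 50.9% and 51.3% for all. The 3′ UTR held 8 and 7 helicase summits (9.09% and 8.54%), compared with 19.4% and 18.1%, and the 5′ UTR held 1 and 2. Within 200 nt of the stop codon there were 4 and 3 summits (4.55% and 3.66%), compared with 8.68% and 8.43%. The last exon held 13.6% and 11.0% of helicase summits, compared with 24.8% and 22.9%. At a median, the exon under a helicase summit was 160.5 nt long in replicate 1 and 155.5 nt in replicate 2, compared with 176 and 170 nt.

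Over all peaks, the helicase core held summits at a share near its share of the codons. The few shared peaks, from 10 genes, fell there less often. Motifs I, II and VI were found by their patterns in 47 of the 54 proteins as translated from the canonical transcripts, and the span from motif I to motif VI made up 40.6% of their codons. Of CDS summits in these genes, 20 of 59 in replicate 1 (33.9%) and 21 of 56 in replicate 2 (37.5%) lay in that span, where an even spread over the codons of the same genes would give 39.0% and 40.6%. These shares rest on 59 and 56 summits and were not tested. They leave out DDX11, DDX60, DDX60L and DHX32, which had CDS summits but where the motifs were not found. The shared DHX32 site in exon 9 is thus not counted below. Past motif VI there were 26 and 27 summits (44.1% and 48.2%), compared with 37.3% and 35.5% of codons. Among shared peaks, 23 per replicate in 10 genes, 6 and 5 lay in the core (26.1% and 21.7%), compared with 39.8% of codons. Another 14 of 23 in each replicate lay past it (60.9%), and the share of codons past motif VI was not computed for these 10 genes. DHX33 held 5 and DHX40 held 4 of the 23. Peaks of a gene are not independent, and the difference was not tested. The codons of motif II were covered by a peak in both replicates in 1 gene, DDX55, with folds of 2.41 and 3.94, and in replicate 2 alone in DDX1 and DHX33. The 30 nt around them show the family signature in the mRNA, with the 12 bases of motif II in capitals, DEAD in the first pair and DEAH in DHX33.
DDX55, chr12:123608780-123608809, plus strand: ctggtgttgGATGAGGCAGACagacttctg
DDX1, chr2:15617325-15618192, plus strand, across an intron: ctggtcctgGATGAAGCTGATgggcttctt
DHX33, chr17:5462397-5462426, minus strand: gtcattttgGATGAAGCTCACgaacggact
The nearest summit to motif II in DDX55 was 24 nt away. DHX40 had a summit 23 nt from its motif II, but the peak did not reach those codons.

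The bases around helicase summits were lower in G and C than around other summits. In windows reaching 50 nt to either side of the summit, the median G and C content was 45.0% and 44.6% in replicates 1 and 2, against 48.5% and 47.5% over all protein-coding genes and 46.5% in all CDS windows of the helicase mRNAs with a summit. The CDS windows are not weighted by peaks, whereas summit windows are, and these include UTR summits. DDX60, with 15 and 14 summits, had a CDS G and C content of 39.3%. Local content at summits was thus not separated from which genes hold them, here or for GGAC below. At the level of genes, the median G and C content of the CDS was 44.2% in the 18 helicases with summits in both replicates and 48.6% in the 24 without any, and the ranges overlapped (39.0% to 63.2% and 41.2% to 63.6%). The same order was seen over all protein-coding genes, at 49.0% in 5619 and 54.6% in 12787. By class of CDS G and C content, summits in both replicates were found in 5 of 10 helicases below 42%, compared with 38.4% of all protein-coding genes, and in 6 of 15 from 42% to 46%, compared with 39.1%. They were found in 4 of 12 from 46% to 52%, compared with 32.8%, and in 3 of 17 at or above 52% (17.6%), compared with 20.8%. GGAC, the core of the common m6A sequence, was searched on the mRNA strand only. It was present in 23 of 88 and 22 of 82 helicase summit windows (26.1% and 26.8%), compared with 31.9% and 32.1% of all summit windows and 30.6% of all CDS windows of the same helicase mRNAs. TGGAC, which contains GGAC, was present in 8 and 5 windows (9.09% and 6.10%), compared with 12.9%, 13.0% and 12.1%. With so few windows, 1 window moves these shares by over 1 percentage point. None of the 5 strongest shared sites had GGAC in its window.

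Other RNA helicases with names outside the DDX and DHX series were described for comparison. Of 20 such genes, 11 had summits in both replicates, 2 in one and 7 in neither. Over all protein-coding genes, 28.0% had summits in both and 36.2% in either. The 20 held 1.13 and 1.01 summits per kb in replicates 1 and 2, against 0.420 and 0.391 for the DEAD and DEAH box genes. All protein-coding mRNAs held 0.570 and 0.550. A q of 0.05 or less was found for 15 of 134 peaks (11.2%) and 16 of 120 (13.3%). It was found for 10.2% and 7.75% of all exonic peaks of protein-coding genes. Overlap between replicates was 56.7% and 62.5%, compared with 60.9% and 64.7% over all protein-coding genes. Most peaks were in long mRNAs. HELZ, of 13817 nt, had 34 and 39 summits with highest folds of 7.0 and 6.35, and DICER1, which cuts microRNA precursors, had 24 and 22. AQR, a helicase of the spliceosome, had 18 in each replicate. The DEAD box genes EIF4A1, EIF4A2 and EIF4A3 had none, and neither did UPF1, the helicase of nonsense-mediated decay.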

How the data were processed

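IGF2BP3 RIP-seq of OE-19 cells was examined as 2 peak lists, 1 per replicate, with groups and replicate numbers from the sample titles. Per the labels, cells were fixed with UV, which the study's methods describe for LACE-seq and not for RIP. Reads were mapped to hg38 by the authors (Tophat2 in the study's methods, HISAT2 with fastp in the submitters' processing notes), and peaks were called with MACS2 in each replicate. The study's methods state default settings, but the lists hold peaks down to an uncorrected limit. The deposited values were a fold enrichment (a ratio over local background), a −log10 p, a −log10 q and a score. The lowest deposited −log10 p was 2.0003 and 2.00226, and the median −log10 q was 0. Depth is unknown, so no counting interval was given.

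Summits were assigned to every gene with an exon there in GENCODE 44, without strand. All 24 chromosomes matched the GRCh38 reference, with 0 peaks past a chromosome end. Regions, exon numbers and codons are those of the canonical transcript. The core ran from GxGKT or GxGKS (motif I) over DExD or DExH (motif II) to motif VI, found in translated sequences. Coding sequences of paralogs were aligned globally. Means are given with the SD over replicates. Scripts were tested on simulated data. Python 3.11.15, pandas 2.3.3, pysam 0.24.0, Biopython 1.88 and matplotlib 3.10.9 were used.

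The members, gene groups and comparison list were chosen with earlier results of these data known. Named genes were those with the 10 highest folds or 5 highest peak counts among genes with summits in both replicates, genes with overlapping peaks of q at most 0.05 in both (0 genes), 5 paralog pairs and genes without a summit. Further members are named to complete each group, and the 5 sites whose sequences are shown were chosen after their values were seen. Alternatives were a q of at most 0.05, a p of at most 1e-05, a fold of 5 or more, dropping each replicate, other ways to assign genes and an overlap of 50%.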

Additional observations from a re-analysis of the deposited data

How the results depend on the processing

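Under stricter limits fewer peaks remain by construction, and for the other changes the cause was not tested. At a q limit of 0.05, the helicase genes with a peak in both replicates numbered 0, the peaks per replicate 0.5, the summits per kb 0.00239 and the share of CDS summits in the core 0%. At a p limit of 1e-05, there were 2 genes, 7 peaks per replicate, 14.3% of peaks shared, 100% of summits in the CDS and 0.0334 per kb. With a fold of at least 5, there were 0 genes, 1 peak per replicate, 0% shared, 100% in the CDS, 0.00477 per kb and 0% in the core. Counting peaks that touch an exon gave 0.427 per kb and 19 genes. An overlap of 50% of both peaks gave 24.3% shared, and keeping shared peaks gave 23.9% in the core. Summits in exons of 1 gene alone gave 18 genes and 40.6% shared. Leaving out a replicate gave 84 to 89 peaks, 89.0% to 89.8% in the CDS, 0.391 to 0.420 per kb and 33.9% to 37.5% in the core, which with 2 replicates is no check of stability. Genes in both replicates and the shared percentage are not defined for 1 replicate. No paired analysis was possible because the values come from no test between groups and input values were not used. The few peaks per gene and the unknown depth limit each gene's values.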

Other observations

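Outside exons, 2 summits in replicate 1 and 3 in replicate 2 lay in introns of helicase genes, in DDX24, DDX42 and DHX40. The DHX40 intronic summits were at overlapping peaks, with folds of 2.52 and 4.18, and both peaks reached into an exon. The replicate 2 value is close to the highest exonic fold of that gene.

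Many helicase peaks had exactly the same p as other peaks. Of the 89 replicate 1 peaks, 47 (52.8%) had one of the 10 commonest p values of that list, and of the 84 replicate 2 peaks, 38 (45.2%) did, compared with 38.8% and 41.5% of all exonic peaks of protein-coding genes. The 89 peaks had 37 distinct p values and the 84 had 45.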
